A study of Mus musculus with 6 samples.

Results

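The 10 genes of the YAP/TAZ pathway were followed in organoid cultures of mouse pancreatic tumours, 10 of 53379 annotated genes. They were chosen by name as the coactivators Yap1 and Wwtr1 (which encodes TAZ), the DNA-binding factor Tead1, the targets Ctgf (also Ccn2), Cyr61 (also Ccn1), Ankrd1 and Axl, and the targets that act back on the pathway, Amotl2, Ajuba and Lats2. All 10 were found in the tables of gene counts and all 10 passed the filter on low counts, among 14537 genes tested.

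YAP and TAZ shuttle between cytoplasm and nucleus and do not bind DNA themselves. The LATS kinases of the Hippo pathway phosphorylate them, which holds them in the cytoplasm and marks them for degradation. In the nucleus they bind TEAD factors, which recognise a short DNA motif, and switch on genes of growth, matrix and cytoskeleton. Several of these genes encode inhibitors of YAP, so the pathway carries its own negative feedback. In the pancreas YAP is known for its part in acinar-to-ductal metaplasia and tumour growth.

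The cultures came from tumours of mice of strain C57/Bl6, in which Pdx1-Cre, active in pancreatic progenitors, switches on a Trp53 allele with R172H. Each of 3 organoid lines, numbered 6, 23 and 34, gave 1 heterozygous library, with genotype Trp53LSLR172H/+, and 1 library with loss of heterozygosity (LOH), with genotype Trp53LSLR172H/-. Both groups (n = 3 each) share the R172H allele, the Cre, the rest of the labelled genotype and growth in a dome of Matrigel. Every LOH library, and no heterozygous one, carries the suffix "Nut" in its description. No label says what it stands for, and its part cannot be told apart from that of genotype. Nothing says that a line came from more than 1 tumour or that a culture was repeated. The p-values therefore set the group difference only against the variation that each fit leaves between these 6 libraries.

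The promoters of the members are shown first because the TEAD motif is the part of them that the pathway reads. RefSeq promoter sequences (GRCm38.p6) matched 8 of the members, namely Yap1, Wwtr1, Cyr61, Ankrd1, Amotl2, Ajuba, Axl and Lats2. The core of the TEAD motif, GGAATG or its reverse complement CATTCC, was searched on both strands in the 250 bases before each start site. It was present for 7 of the 8 members, counted by gene over their 10 promoter sequences. Counted by single promoter, 12.6% of the 32851 in the table held it. There were 2 copies for Ankrd1 and for Ajuba, and 1.02% of promoters held 2 or more. The members were chosen by name as pathway genes, so these shares are no test of the motif. Capitals mark the motif, and the sequences run 5′ to 3′ on the strand of the gene. Cyr61 lies at chr3:145649986-145650235, Ajuba at chr14:54577662-54577911 and Axl at chr7:25788734-25788983, all on the minus strand.
Cyr61: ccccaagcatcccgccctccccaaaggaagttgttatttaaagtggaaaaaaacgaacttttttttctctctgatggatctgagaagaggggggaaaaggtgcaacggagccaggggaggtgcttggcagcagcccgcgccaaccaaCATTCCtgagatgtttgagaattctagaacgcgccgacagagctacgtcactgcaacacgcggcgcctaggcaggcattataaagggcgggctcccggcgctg
Ajuba: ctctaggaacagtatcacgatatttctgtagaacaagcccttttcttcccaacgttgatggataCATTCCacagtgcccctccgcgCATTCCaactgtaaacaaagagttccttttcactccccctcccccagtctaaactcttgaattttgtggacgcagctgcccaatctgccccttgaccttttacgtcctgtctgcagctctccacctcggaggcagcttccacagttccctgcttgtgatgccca
Axl: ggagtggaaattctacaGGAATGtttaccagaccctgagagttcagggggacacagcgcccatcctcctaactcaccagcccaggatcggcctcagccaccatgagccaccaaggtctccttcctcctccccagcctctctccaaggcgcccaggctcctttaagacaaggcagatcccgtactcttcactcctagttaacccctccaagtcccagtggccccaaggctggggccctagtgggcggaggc
In Cyr61 the motif began 103 bases before the start site, in Ajuba 186 and 164 bases before it, and in Axl 233 bases before it. For Amotl2 (plus strand, chr9:102717727-102717756) and Ankrd1 (minus strand, chr19:36120037-36120066 and chr19:36119950-36119979) the motif lay in a stretch that GENCODE annotates as exon, so a window of 30 bases is shown for each copy.
Amotl2: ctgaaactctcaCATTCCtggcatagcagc
Ankrd1, first copy: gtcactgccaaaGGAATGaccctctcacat
Ankrd1, second copy: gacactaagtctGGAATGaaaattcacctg
The motif began 65 bases before the start site in Amotl2 and 210 and 123 bases before it in Ankrd1. The promoters of the coactivators held it too, 141 bases before the start site in Yap1 and 136 and 170 bases before the 2 annotated starts of Wwtr1, as 1 copy. Neither of the 2 Lats2 sequences held it. A match is a description of these letters and not a measured binding site.

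Libraries held 13680458 to 27917277 expected counts. Genes of the protein-coding table took 67.9% to 73.3% of the counts in heterozygous and 61.4% to 67.2% in LOH libraries. Levels are given as CPM, counts per 1000000 counts, scaled between libraries by the TMM method of edgeR, and a count of 3 corresponded to 0.1 to 0.223 CPM. The 8 epithelial markers summed to 5247 to 6084 CPM in heterozygous and 5176 to 11407.5 CPM in LOH libraries. The 10 fibroblast markers summed to 0.0742 to 0.167 CPM in heterozygous and 0.605 to 1.16 CPM in LOH libraries, with Col3a1 at 0 in every library. Endothelial markers summed to at most 0.901 and 3.2 CPM, leukocyte markers to at most 2.37 and 14.9 CPM, most of it Cd68, and acinar and endocrine markers to at most 1.85 and 6.34 CPM, in heterozygous and LOH libraries. These 4 sums were higher in LOH in each line, at levels far below the epithelial one, and their part in the results was not tested. In such bulk libraries fewer cells of a type and less RNA per cell cannot be told apart.

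The question was how the coactivators, their partner and their targets differ once the wild-type Trp53 allele is lost. Of the 10 members, Amotl2, Ajuba and Cyr61 fell in LOH libraries in the quasi-likelihood test of edgeR (Benjamini-Hochberg adjusted p under 0.05) and none rose. Over all genes tested 5.21% passed, 1.66% lower and 3.55% higher. The 7 targets and Yap1 were lower in LOH in each of the 3 lines, 8 of 10 members against 21.6% of all genes tested, while Wwtr1 and Tead1 went both ways. In 7 of the 10, 6 targets and Yap1, every LOH library lay below every heterozygous one, against 16.5% of all genes, and in none above, against 16.4%. The median log2 fold change was -1.07 over the 10 members and 0.06 over all genes tested. With the organoid line as a block 1 of the 10, Amotl2, passed, against 1.47% of all genes tested (0.248% lower and 1.22% higher).

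**Figure D1:**
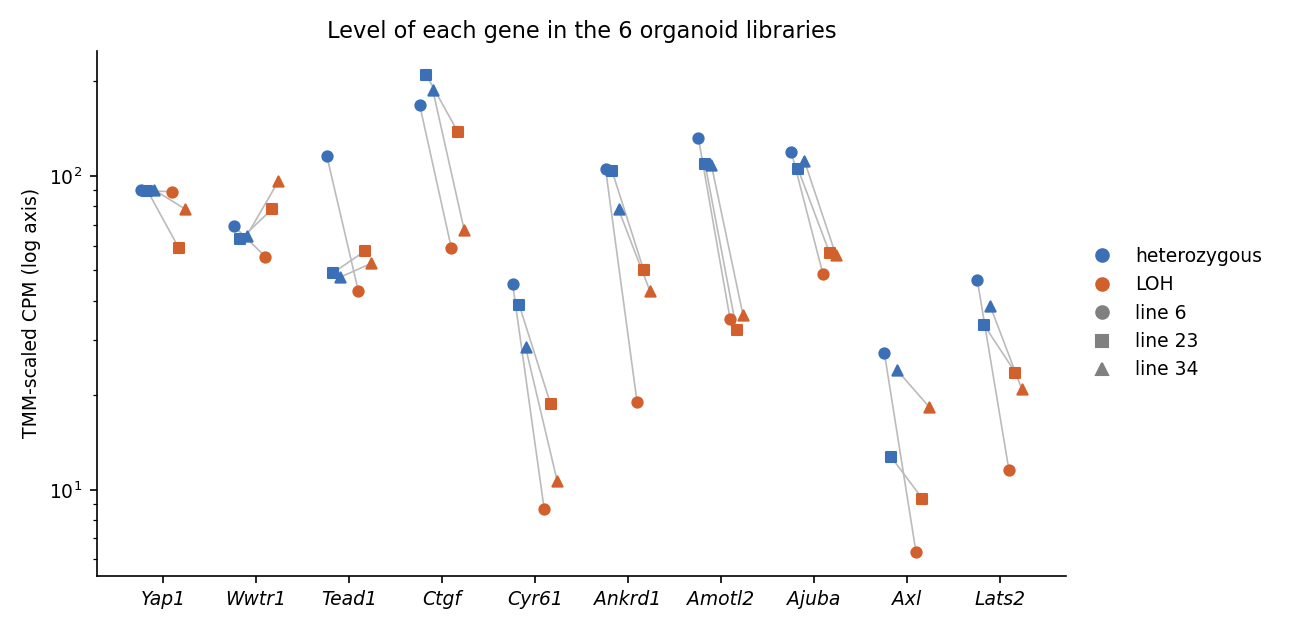
TMM-scaled CPM (log axis) of the 10 genes in each of the 6 libraries, with heterozygous libraries in blue, LOH libraries in orange, a symbol for each organoid line and a grey line joining the libraries of a line. The 3 LOH libraries of Amotl2 sit between 32.3 and 35.9 CPM, below heterozygous libraries at 108.1 to 131.7 CPM, whereas Wwtr1 and Tead1 overlap.

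Yap1 (ENSMUSG00000053110.13; GRCm38 chromosome 9, 7931999 to 8004596, minus strand) encodes the YAP coactivator. In lines 6, 23 and 34 its level was 89.9, 89.8 and 90.4 CPM when heterozygous and 89.0, 58.8 and 78.3 CPM after LOH. The heterozygous libraries lay within 0.3 CPM (SD) of 90.1 CPM, and all 3 LOH libraries were below them, line 6 by under 1 CPM. Its log2 fold change was -0.26 (SE 0.2; in edgeR, adjusted p 0.452), which did not pass.

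Wwtr1 (ENSMUSG00000027803.14; chromosome 3, 57455649 to 57575910, minus strand) encodes TAZ, the paralog of YAP. Heterozygous libraries had 69.3, 62.8 and 64.5 CPM and LOH libraries 55.3, 78.3 and 96.2 CPM, in the same order of lines. It was lower in LOH in line 6 and higher in the other two, so the groups overlapped. The fitted log2 fold change was 0.22 (SE 0.23; in edgeR, adjusted p 0.572), and its sign turned on the TPM scale, at -0.20.

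Per unit of length the cells held more Yap1 than Wwtr1 RNA in every heterozygous library. The authors' TPM (transcript numbers scaled for gene length) of Yap1 was 1.77, 1.85 and 1.99 times that of Wwtr1 there. After LOH the ratio was 2.05, 0.867 and 1.0 in that order of lines. Both coactivators were thus at like levels in the LOH libraries of lines 23 and 34, while that of line 6 lay near the heterozygous ratio.

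Tead1 (ENSMUSG00000055320.17; chromosome 7, 112679318 to 112906807, plus strand) is the TEAD factor among the members. The heterozygous library of line 6 stood apart at 116.1 CPM, against 49.2 and 47.5 CPM in lines 23 and 34, and the LOH libraries had 43.0, 57.6 and 52.7 CPM. The log2 fold change of -0.47 (SE 0.37; in edgeR, adjusted p 0.458) rested on that 1 library, since without it the value was 0.05. In lines 23 and 34 Tead1 was slightly higher in LOH, with log2 ratios of 0.23 and 0.15.

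All 4 TEAD genes were transcribed, and their TPM can be compared within a library. In heterozygous line 6 Tead1 made up 44.0% of the summed TEAD TPM, and in the other 5 libraries 21% to 31.5%. Tead4 made up 22.2% to 37.6% in 5 libraries and 52.9% in LOH line 34. Tead3 was the smallest part of all in each library but LOH line 34, at 10.3% to 20.7%, where Tead2 was smallest at 12.7%. None of the other TEAD genes passed in edgeR, with log2 fold changes of -0.28 for Tead2 (adjusted p 0.571), 0.39 for Tead3 (adjusted p 0.404) and -0.08 for Tead4 (adjusted p 0.923). Tead2 and Tead4 changed sign between the lines, and Tead3 was at -0.0048 on the log2(TPM + 1) scale.

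**Figure D2:**
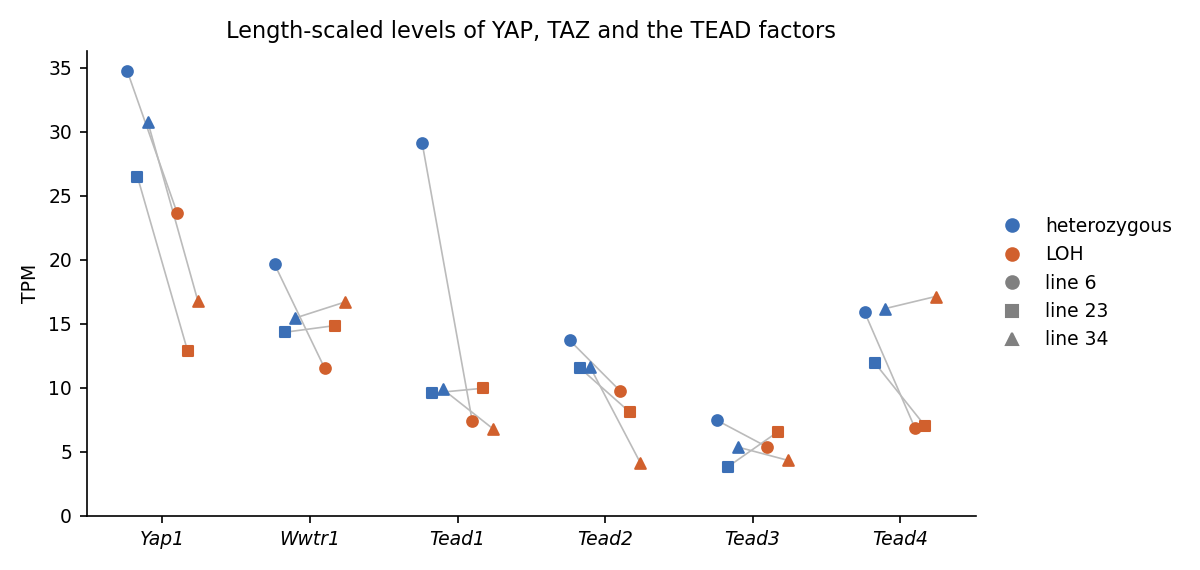
TPM of Yap1, Wwtr1 and the 4 TEAD genes in each library, with groups by colour and organoid lines by symbol. Tead1 of heterozygous line 6, at 29.1 TPM, stands above the other 5 libraries at 6.79 to 9.95 TPM, and Yap1 is lower in LOH than in heterozygous libraries on this scale.

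On the TPM scale all values carry a shift, because the log2 fold changes of all genes had a median of -0.42 with a pseudocount of 0.1, against 0.06 in the edgeR fit. Of the genes that limma called on log2(TPM + 0.1), 267 were higher and 1486 lower, against 516 and 241 in the edgeR fit. Relative to the TPM median, the change was -0.40 for Yap1, 0.22 for Wwtr1 and -0.40 for Tead1. On the same relative scale the 7 targets lay between -1.74 (Amotl2) and -0.92.

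Ctgf and Cyr61 encode secreted matricellular proteins of the CCN family and are the usual readouts of YAP and TEAD activity. Cyr61 (ENSMUSG00000028195.4; chromosome 3, 145646976 to 145649981, minus strand) had 45.4, 38.9 and 28.4 CPM in heterozygous and 8.67, 18.7 and 10.7 CPM in LOH libraries. Every LOH library lay below every heterozygous one. Its mean fell from 37.6 ± 8.58 to 12.7 ± 5.32 CPM (SD, n = 3 each), 2.95-fold, with a log2 fold change of -1.56 (SE 0.34; in edgeR, adjusted p 0.0481). In the blocked fit it did not pass (edgeR adjusted p 0.0925), nor without LOH line 34 (0.0927), without line 6 (0.0887), without any 1 heterozygous library or with at least 10 counts required in each library (0.0501).

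Ctgf (ENSMUSG00000019997.11; chromosome 10, 24595442 to 24598683, plus strand) was the most abundant of the 10 in TPM, at 91.6 to 98.9 TPM in heterozygous libraries. Its level was 168.3, 210.3 and 188.5 CPM in heterozygous and 59.1, 138.2 and 67.1 CPM in LOH libraries. The groups did not overlap, and LOH line 23 was the nearest to the heterozygous libraries. Its log2 fold change of -1.10 (SE 0.34; in edgeR, adjusted p 0.104) did not pass. Without LOH line 23 it was -1.58 (edgeR adjusted p 0.0285).

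Ankrd1 (ENSMUSG00000024803.8; chromosome 19, 36111961 to 36120099, minus strand) encodes an ankyrin repeat protein of nucleus and sarcomere. Heterozygous libraries had 105.4, 103.7 and 78.2 CPM, and LOH libraries 19.0, 50.2 and 42.8 CPM. The groups did not overlap and line 6 showed the widest gap. The fitted log2 fold change of -1.36 (SE 0.36; in edgeR, adjusted p 0.0776) did not pass, and it was -1.08 without LOH line 6 (edgeR adjusted p 0.0273).

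Axl (ENSMUSG00000002602.16; chromosome 7, 25757273 to 25788705, minus strand), a receptor tyrosine kinase for GAS6, was the one target whose groups overlapped. It had 27.3, 12.8 and 24.001 CPM in heterozygous and 6.35, 9.36 and 18.4 CPM in LOH libraries, and heterozygous line 23 lay below LOH line 34. The log2 ratio was -2.09 in line 6 and -0.44 and -0.38 in lines 23 and 34. The log2 fold change over the lines was -0.91 (SE 0.45; in edgeR, adjusted p 0.259), and -0.44 without line 6.

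The remaining 3 members are targets that are themselves parts of the Hippo pathway. Amotl2 (ENSMUSG00000032531.15; chromosome 9, 102716672 to 102733418, plus strand) encodes an angiomotin, a junction protein that binds YAP and keeps it out of the nucleus. It had 131.7, 109.5 and 108.1 CPM in heterozygous and 35.0, 32.3 and 35.9 CPM in LOH libraries, with little spread within either group. The mean fell from 116.4 ± 13.2 to 34.4 ± 1.89 CPM (SD, n = 3 each), 3.38-fold, with a log2 fold change of -1.76 (SE 0.18; in edgeR, adjusted p 0.0109). The 3 lines gave log2 ratios of -1.91, -1.76 and -1.59, and it also passed in the blocked fit (edgeR adjusted p 0.0397).

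Ajuba (ENSMUSG00000022178.11; chromosome 14, 54567472 to 54577558, minus strand) encodes a LIM protein of cell junctions that binds and inhibits LATS kinases. It had 119.0, 105.4 and 111.6 CPM in heterozygous and 48.6, 56.9 and 55.8 CPM in LOH libraries. The mean fell from 112.0 ± 6.81 to 53.8 ± 4.51 CPM (SD, n = 3 each), 2.08-fold, with a log2 fold change of -1.06 (SE 0.17; in edgeR, adjusted p 0.0246). The log2 ratios were -1.29, -0.89 and -1.0 in lines 6, 23 and 34. In the blocked fit it did not pass (edgeR adjusted p 0.0968).

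Lats2 (ENSMUSG00000021959.16; chromosome 14, 57689662 to 57758388, minus strand) encodes a LATS kinase. It had 46.6, 33.6 and 38.5 CPM in heterozygous and 11.6, 23.6 and 20.9 CPM in LOH libraries, with no overlap. The log2 fold change of -1.08 (SE 0.3; in edgeR, adjusted p 0.0816) did not pass. Without LOH line 6 it was -0.87 (edgeR adjusted p 0.0449), and its paralog Lats1 had a log2 fold change of 0.02 (SE 0.35; in edgeR, adjusted p 0.978).

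**Figure D3:**
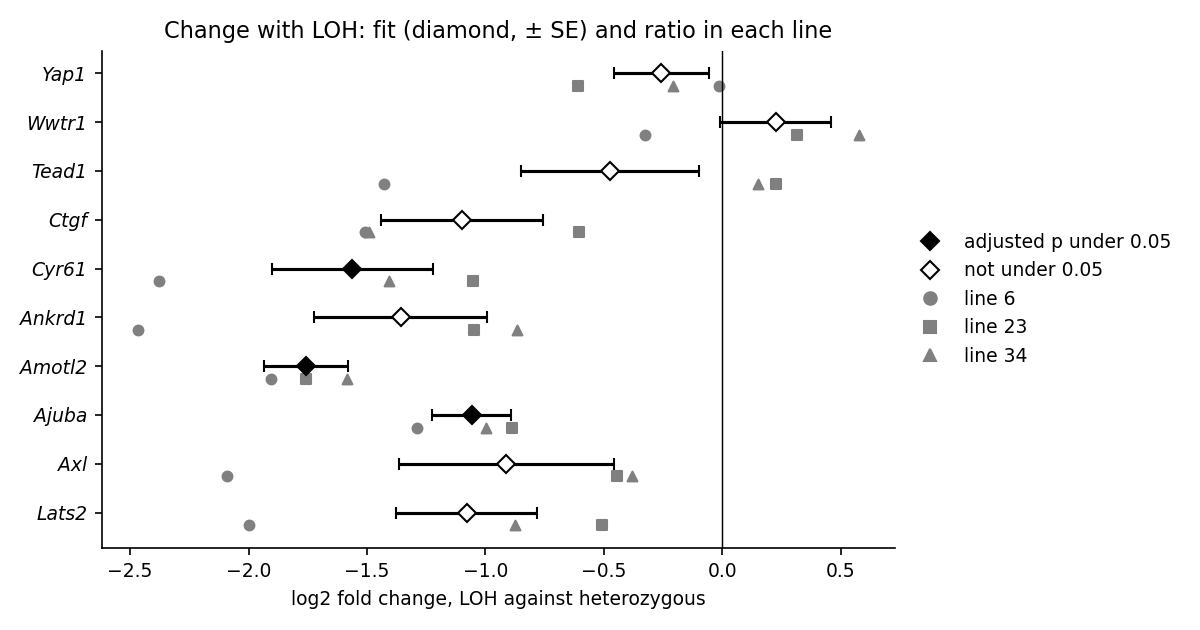
Log2 fold change of the 10 genes in LOH against heterozygous libraries: diamonds give the edgeR fit with its SE, filled where the adjusted p is under 0.05, and grey symbols give the log2 ratio in each organoid line. All 7 targets lie left of 0 in each line, with line 6 leftmost, and the 3 filled diamonds are Cyr61, Amotl2 and Ajuba.

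No member passed in edgeR once any 1 heterozygous library was left out, nor without line 23 or line 34, when 0 of all genes passed as well. Between 6 and 7 of the 10 members still had an unadjusted p under 0.05 in those fits, against 6 with all libraries. Over all genes 2097 to 2966 did, against 3681 with all libraries. Without LOH line 6, 5 members passed in edgeR, namely Amotl2, Ajuba, Cyr61, Ankrd1 and Lats2, among 16.2% of all genes tested. With DESeq2 6 passed, these 5 and Ctgf, among 14.2% of genes. With limma on log2(TPM + 1) all 7 targets passed, among 16.03% of genes. Counts of calls depended on the tool and the libraries, while each of the 7 targets was below 0 in all 18 alternatives. Yap1 was also below 0 in all 18, at -0.82 to -0.11, and passed in none. All alternatives reuse the same 6 libraries, in which 6 of the 7 targets and Yap1 had no overlap, so the kept signs are no further test.

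The size of the difference varied between the organoid lines. In each of the 7 targets the log2 ratio was lowest in line 6, from -2.47 in Ankrd1 to -1.29 in Ajuba. In line 23 the same ratios lay between -1.76 (Amotl2) and -0.44 (Axl), and in line 34 between -1.59 (Amotl2) and -0.38 (Axl). With 1 library per genotype in a line these differences between lines were not tested. Tead1 also had its lowest ratio in line 6, at -1.43.

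Profiles over the 6 libraries were compared by the root mean square distance between log2 CPM values centred on each gene's mean, among genes of at least 5 CPM. Cyr61 and Ankrd1 were 0.278 apart, and Ankrd1 ranked 6 among the 10074 genes by closeness to Cyr61. The nearest member to Ankrd1 was Lats2 (0.272, rank 6), to Lats2 it was Ajuba (0.261, rank 26), and to Ctgf it was Cyr61 (0.327, rank 43). For Amotl2 it was Ajuba (0.364, rank 66), for Axl it was Lats2 (0.408, rank 67), and for Ajuba it was Lats2 (0.261, rank 223). Most targets thus had many other genes nearer to them than any member. For Tead1 the nearest member was Wwtr1 (0.493, rank 1736), and Yap1 and Wwtr1 were nearest to each other (0.421, ranks 5526 and 4323). For the called members, the nearest genes of all were Evc (0.134) and Podxl (0.218) for Cyr61, Nfe2l2 (0.137) and Tsku (0.145) for Amotl2, and Syde1 (0.0608) and Tysnd1 (0.0637) for Ajuba. Evc encodes a ciliary protein, Podxl a sialomucin of apical membranes, and Nfe2l2 the NRF2 factor of the antioxidant response. These distances describe 6 libraries that also share the group difference.

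Beside the total of Yap1, its transcripts were compared. Most of it came from 2 protein-coding transcripts that differ by exon 6 of 9, a coding exon of 48 bases (GRCm38 chr9:7950492-7950539, minus strand) that ENSMUST00000065353.12 has and ENSMUST00000086580.11 lacks. With lengths of 4171 and 4115 bases, the 2 transcripts also differ outside this exon. The exon adds an insert in the leucine zipper region of the transactivation part of YAP and keeps the reading frame. Its sequence from GENCODE release 21 is shown in capitals, with 15 bases of each neighbouring exon in lower case, because both transcripts differ in it.
Yap1 exon 6: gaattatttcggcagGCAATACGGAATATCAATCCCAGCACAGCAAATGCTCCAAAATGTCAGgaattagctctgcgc
Transcripts with the exon made up 58.1%, 49.7% and 59.0% of the TPM of Yap1 transcripts that span it in heterozygous lines 6, 23 and 34, and 65.6%, 67.5% and 75.7% in LOH. The share was higher in LOH in each line and the groups did not overlap, at 55.6% ± 5.09 and 69.6% ± 5.37 (SD, n = 3 each).

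Of the main transcripts, the one without the exon was lower in LOH. It had 42.4, 50.2 and 44.9 CPM in heterozygous and 33.8, 18.5 and 19.99 CPM in LOH libraries. The transcript with the exon had 38.3, 33.4 and 36.2 CPM in heterozygous and 50.2, 37.9 and 53.9 CPM in LOH libraries. Scaled for length, the form without the exon was above the other in each heterozygous library (13.8, 13.1 and 12.3 against 12.3, 8.62 and 9.78 TPM) and below it in each LOH library (8.06, 4.01 and 3.98 against 11.8, 8.12 and 10.6 TPM). Over these 2 transcripts alone the share of TPM with the exon was 43.7% ± 3.77 and 66.3% ± 6.64 (SD, n = 3 each).

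Shares of this kind are RSEM estimates from reads that both transcripts mostly share, and the exon was singled out after its values had been seen, so no test is given. Of 14 member transcripts with a mean share of 10% to 90% of their gene, 3 did not overlap between the groups, both main Yap1 transcripts and a retained-intron transcript of Axl (ENSMUST00000124442.7) that rested on 23 counts or fewer. The same held for 13.2% of 12802 such transcripts in all genes of at least 5 TPM. Cyr61 and Ankrd1 were reported as 1 transcript in every library, and ENSMUST00000029380.13 made up at least 97.7% of Wwtr1.

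**Figure D4:**
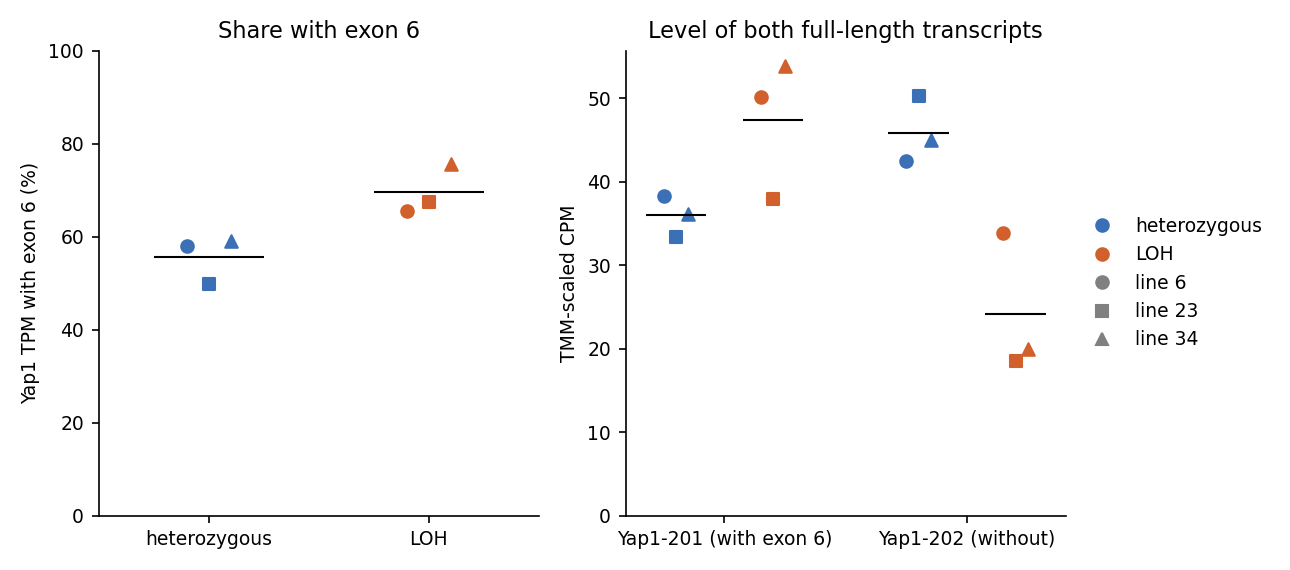
Left, percent of Yap1 TPM in transcripts with exon 6, among transcripts that span it. Right, TMM-scaled CPM of the main transcripts with and without the exon, labelled by their GENCODE names, with black lines at group means and organoid lines by symbol; the 3 LOH libraries lie above the heterozygous ones on the left, at 65.6% to 75.7%, and below them for the transcript without the exon.

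The rest of the pathway was read from fixed lists, 97 genes in all, of which 80 were tested and 5 passed in edgeR, 4 higher and 1 lower. That is 6.25%, against 5.21% of all genes, and the median log2 fold change was 0.33. With the organoid line as a block 0 of the 80 passed in edgeR. In that fit 19 of the 80 had an unadjusted p under 0.05, and so did 2910 of all 14537 genes tested. With limma on log2(TPM + 1) 70 were tested and 7 passed, 10% against 16.03% of all genes in that fit. These were 1 higher (F3) and 6 lower (Arhgef17, Fjx1, Igfbp3, Limd1, Nf2 and Tpm1). Over all genes that fit called 280 higher and 1631 lower. Igfbp3 was the 1 listed gene called in both this and the main edgeR fit. Mink1 (0.45, adjusted p 0.149), Junb (0.64, adjusted p 0.056) and Fosl2 (0.59, adjusted p 0.113) did not pass in that limma fit, and Vgll3 was below its TPM filter. None of the 5 passed in edgeR without any 1 heterozygous library, Igfbp3, Vgll3, Junb and Fosl2 did not pass without LOH line 23, and Vgll3, Junb and Fosl2 did not pass without LOH line 34.

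Among the kinases and upstream regulators of Hippo signalling, 40 of 44 genes were tested, with a median log2 fold change of 0.22, and 1 passed. Mink1, a kinase of the MAP4K group that can phosphorylate LATS, rose from 56.7 ± 1.61 to 113.6 ± 10.6 CPM (SD, n = 3 each), with a log2 fold change of 1.0 (SE 0.17; in edgeR, adjusted p 0.0267). It had 58.5, 56.4 and 55.3 CPM in heterozygous and 101.4, 120.5 and 119.1 CPM in LOH libraries, without overlap. With the block it did not pass (edgeR adjusted p 0.103). Nf2, which encodes the upstream activator Merlin, had 64.2, 70.1 and 66.8 CPM against 44.8, 40.1 and 46.7 CPM and is named after its values were seen. Its log2 fold change of -0.61 (SE 0.17; in edgeR, adjusted p 0.0785) did not pass.

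Of 7 TEAD and VGLL factors 5 were tested and Vgll3 passed. VGLL proteins compete with YAP and TAZ for TEAD. Vgll3 rose from 0.27 ± 0.15 to 2.34 ± 1.46 CPM (SD, n = 3 each), with a log2 fold change of 3.03 (SE 0.66; in edgeR, adjusted p 0.0477; 0.142 with the block). The level was low, at 1.05, 3.93 and 2.05 CPM in LOH lines 6, 23 and 34, and the heterozygous libraries held 13, 2 and 7 counts.

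A further 16 known YAP targets were listed, of which 14 were tested, and they went both ways. The median log2 fold change was -0.08, with 3 of 14 genes lower and 5 higher in LOH in all lines. Over all genes tested 21.6% were lower and 22.9% higher in all lines. Igfbp3, a secreted binder of insulin-like growth factors, was the one that passed. It had 46.1, 48.4 and 44.2 CPM in heterozygous and 1.92, 5.51 and 12.5 CPM in LOH libraries, a log2 fold change of -2.79 (SE 0.6; in edgeR, adjusted p 0.0459; 0.0744 with the block). Myof and F3, named after their values were seen, lay on the other side. Myof, a membrane repair protein, had 238.5, 201.1 and 230.6 CPM against 333.5, 480.5 and 553.9 CPM (log2 fold change 1.03, SE 0.23, edgeR adjusted p 0.0506). F3, tissue factor, had 31.1, 47.2 and 29.8 CPM against 71.0, 91.1 and 177.9 CPM (log2 fold change 1.65, SE 0.39, edgeR adjusted p 0.0564). Fitted values on both sides of 0 thus set this wider list beside 7 member targets that all lay below 0.

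AP-1 subunits bind many enhancers together with TEAD. Of 9 listed 8 were tested, with a median log2 fold change of 0.92, and Junb and Fosl2 passed. Junb rose from 66.5 ± 6.14 to 139.7 ± 37.6 CPM (SD, n = 3 each; log2 fold change 1.07, SE 0.23, edgeR adjusted p 0.0474). Fosl2 rose from 43.4 ± 9.9 to 92.2 ± 13.6 CPM (SD, n = 3 each; log2 fold change 1.09, SE 0.24, edgeR adjusted p 0.0477). With the block neither passed (edgeR adjusted p 0.111 and 0.121). Of the 8, 5 were higher in all lines, against 22.9% of all genes tested.

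SRF and its MRTF coactivators answer to actin and share targets with YAP. Of 14 listed 10 were tested and 0 passed in edgeR, with 2 at an unadjusted p under 0.05, Tpm2 and Tpm1, which encode tropomyosins. Over all 14537 genes tested in this fit 3681 had an unadjusted p under 0.05. Tpm2 had a log2 fold change of 1.79 (SE 0.55; in edgeR, adjusted p 0.102) and Tpm1 one of -0.71 (SE 0.25; in edgeR, adjusted p 0.136). Of the receptors related to Axl and their ligands 4 were tested and 0 passed in edgeR, with 1 at an unadjusted p under 0.05. That was Mertk, at 0.2, 0.15 and 0.57 CPM against 2.5, 1.02 and 2.19 CPM (log2 fold change 2.55, SE 0.64, edgeR adjusted p 0.0661). Tyro3 had a log2 fold change of 1.04 (SE 0.56; in edgeR, adjusted p 0.289), so the fitted direction of both was opposite to that of Axl. The other 4 genes of the CCN family listed here did not pass the filter on low counts.

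**Figure D5:**
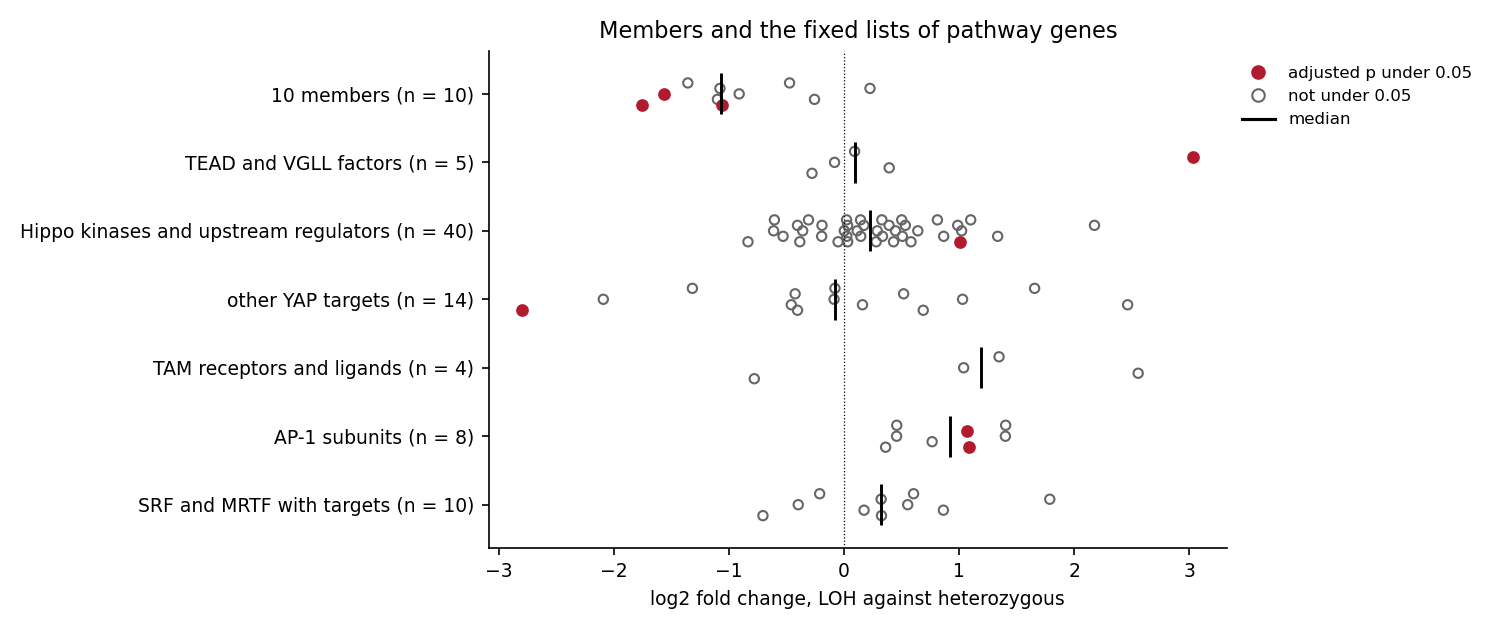
Log2 fold change in LOH against heterozygous libraries for the 10 members and for the tested genes of 6 fixed lists, each circle 1 gene, red where the edgeR adjusted p is under 0.05, with a black bar at the median. The members have a median of -1.07 and the other YAP targets one of -0.08, with genes on both sides of 0.

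Annotated genes overlap 5 of the members: Gm20416 Yap1, Gm16016 Wwtr1 and Gm15270 Ctgf on the opposite strand, 2310014F06Rik (opposite) and Gm44462 (same strand) Tead1, and Gm49361 (same strand), Gm26440 and Gm20430 (opposite) Lats2. The strand setting of the counting is not given in the sources used here, so reads of such pairs may not be separated.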

How the data were processed

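Libraries of 6 organoid cultures were prepared from total RNA with a strand-preserving Illumina kit, per the labels' protocols. FastQC 0.11.5, STAR 2.5.2b, RSEM 1.3.0, DESeq2 1.44.0 and build GRCm38.p5 are named in the submitters' processing notes, and names of deposited tables carry M16, read here as GENCODE mouse release 16. The authors deposited expected counts per gene (estimated counts that need not be whole), TPM, and the percent of each transcript in its gene's TPM, per the file headers. Deposited tables of normalized signal (expected counts over a size factor) gave gene symbols and the protein-coding set. Coordinates came from GENCODE release 21 (GRCm38).

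Expected counts were rounded, filtered by filterByExpr and scaled by TMM. The two-sided quasi-likelihood test (edgeR 4.0.16, R 4.3.3) covered 14537 genes, with a threshold of 0.05 on adjusted p. SE was derived from the F statistic. Line ratios used a prior count of 2. Alternatives changed the scaling (RLE, upper quartile), the filter (none, or 10 counts everywhere), the model (organoid line as a block, DESeq2 1.42.0) or the values (limma 3.58.1 on log2 TPM with pseudocounts of 1 and 0.1, for genes reaching a TPM of 1 in 3 libraries), or left out a library or a line. The protein-coding table alone, both main Yap1 transcripts alone, and transcript shares with a line left out were added after seeing the data. The edgeR fits were also run on simulated counts with known changes and no difference between lines. Of 67 genes changed 4-fold, the fit without a block recovered 35 and the blocked fit 25. Of 66 genes changed 2-fold, they recovered 3 and 0, so a change of that size was mostly missed. Tables and figures used Python 3.11.15 (matplotlib 3.10.9, numpy 2.4.6, pandas 2.3.3).

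The titles show that each number is 1 organoid line, so the numbers pair the libraries. As a check, deviations from group means, correlated across genes, gave -0.3, 0.01 and 0.29 for lines 6, 23 and 34. Pairs of libraries from different lines gave -0.39 to 0.3, so the check did not set libraries of the same line apart.

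Members and lists were chosen with earlier results of these data known. The members and the TEAD genes were always named. From each list came up to 3 genes per direction that passed, taken by p, or 2 by p where none passed. Floors cover counting error only. One item of the genotype that both groups share is not reported here.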

Additional observations from a re-analysis of the deposited data

Results flagged for a closer look

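In 4 of 22 genes compared over the organoid lines, the lines moved in opposite directions. Over all genes tested 21.6% were lower and 22.9% higher in LOH in all 3 lines, and the rest were not of 1 direction. Some of the 22 were named by their p in this comparison, which favours lines that agree, so the count is no result about them. The difference between lines was not tested, since each line has 1 library per genotype. The log2 ratios in lines 6, 23 and 34 were -0.32, 0.32 and 0.58 for Wwtr1, a distance of 0.901 between the highest and the lowest line. For Tead1 they were -1.43, 0.23 and 0.15, a distance of 1.66, and the heterozygous library of line 6 was the high one. Tead2 had 0.08, -0.2 and -0.88, a distance of 0.96. Tead4 had -0.82, -0.49 and 0.51, a distance of 1.34. None of these 4 genes passed in edgeR over the 3 lines.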

How the results depend on the processing

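The count of all genes passing, 757 in the main edgeR fit, was 213 with the replicate block, 2266 with DESeq2, 1911 with limma on log2(TPM + 1) and 1753 on log2(TPM + 0.1). It ran from 0 to 2449 when 1 library or line was left out. The count of members, 3 in the main fit, was 1 with the replicate block, 6 with DESeq2 and 7 in both limma fits, and ran from 0 to 5 with a library or line left out. The count of pathway genes, 5 in the main fit, was 8 with no filter, or 8.33% against 3.62% of all genes. With the replicate block it was 0 (edgeR, 19 at an unadjusted p under 0.05, against 2910 of 14537 genes tested). With DESeq2 it was 15, or 18.1% against 14.2% of all genes. It ran from 0 to 12 with a library or line left out. The 12, without LOH line 6, were 14.5% against 16.2% of all genes. The higher share of Yap1 transcripts with exon 6 in LOH, 14.0 percentage points, was 22.7 over both main transcripts alone and 12.2 to 17.3 with a line left out.

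Over 180 combinations of member and alternative, 141 kept their direction and side of 0.05, 20 no longer passed, 15 newly passed and 4 changed sign. Wwtr1 turned to -0.19 and -0.20 in the limma fits with pseudocounts of 1 and 0.1, where the median of all genes was -0.35 and -0.42. Tead1 turned to 0.05 without heterozygous line 6 and 0.16 without line 6, in a range from -0.78 to 0.16 with a library or line left out. Tead3 turned to -0.0048 and -0.00094 in these limma fits. Tead4 turned to between 0.04 and 0.16 without heterozygous line 34, LOH line 6, LOH line 23, line 6 or line 23, in a range from -0.79 to 0.16. The causes were not tested, and fits with a library or line left out also hold fewer samples. The block changed the calls of Cyr61 and Ajuba, of the 5 pathway genes that passed, and of no other member. The lowest count of a member in any library was 109, for Axl in LOH line 6, and the part of depth was not tested.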

Other observations

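The LOH library of line 6 carried some listed genes that were near 0 elsewhere. These genes, and Gas6 with another pattern, were singled out after their values were seen. Foxf2, a forkhead factor listed among YAP targets, had 29.3 CPM in LOH line 6 and at most 0.28 CPM in the other 5 libraries. Nov, the CCN family member also called Ccn3, had 7.22 CPM in LOH line 6 and at most 0.37 CPM elsewhere. Tek, an endothelial receptor, had 2.5 CPM in the same library and at most 0.07 CPM elsewhere. Gas6, the ligand of Axl, had 83.2, 103.1 and 94.6 CPM in heterozygous lines 6, 23 and 34, and 22.4, 124.8 and 16.1 CPM in LOH. Over the 3 lines the log2 difference was -0.78 (SE 0.73; in edgeR, adjusted p 0.529).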
